A study of Saccharomyces cerevisiae S288C with 6 samples.

Results

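Transcripts of 9 Saccharomyces cerevisiae genes of ribonucleotide reductase and the DNA damage response were followed in cultures exposed to PFA, plakortide F acid, a polyketide endoperoxide of marine sponges that inhibits fungal growth. The genes were the reductase subunit genes RNR1, RNR2, RNR3 and RNR4, the inhibitor gene HUG1, the kinase gene DUN1, the repressor gene RFX1 and the repair genes RAD54 and DIN7. They were chosen by name, with earlier results of these data known. Each was read on the single probe set that the platform annotation gives it, so the set is 9 of 5356 yeast genes tested. The PFA group was S. cerevisiae S288C, the reference laboratory strain of budding yeast, given PFA at its IC50 of 0.62 ug/ml. The DMSO group was the same strain given the solvent at 0.25%. Both were grown in MOPS-buffered synthetic dextrose medium, were dosed at an optical density of 0.2 and harvested at 0.5. Each group had 3 cultures that the titles call biological replicates, with 1 Affymetrix Yeast Genome 2.0 array each. The time to harvest and the solvent content of the PFA cultures are not stated in the labels. A difference in elapsed time or in solvent therefore cannot be told apart from PFA.

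Ribonucleotide reductase makes the deoxyribonucleotides needed for DNA by reducing ribonucleotides, the rate-limiting step of their supply. In budding yeast the large subunit is made of Rnr1, whose gene is transcribed mainly as cells enter S phase, and the small subunit pairs Rnr2, which holds the iron and radical cofactor, with Rnr4. Rnr3 is an alternative large subunit that is kept low until DNA is damaged or replication stalls. Then the checkpoint kinases Mec1 and Rad53 activate Dun1, which relieves repression by Rfx1 (also called Crt1) at RNR2, RNR3, RNR4, HUG1 and RFX1 itself.

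Signals are linear intensities that the authors had already scaled, and a change is the difference of mean log2 signals, PFA minus DMSO. The arrays correlated at 0.991 to 0.994 within a group and at 0.923 to 0.929 between groups. By limma with Benjamini-Hochberg adjustment over all genes, 62.0% of genes passed an adjusted p under 0.05, 30.3% higher and 31.8% lower in PFA. At a change of at least 1.5-fold the shares were 23.7% in both directions, 13.3% higher and 10.4% lower. Of the markers of mating type, 4 of 4 alpha-cell genes, which mark S288C, were lower in PFA. Their summed signals were 15660 to 16630 in PFA and 46693 to 48778 in DMSO. These falls were uneven. MF(ALPHA)1, most of the PFA sum, had 12626 to 13543 in PFA and 17238 to 18521 in DMSO. MF(ALPHA)2 had 84.1 to 108.9 in PFA and 10441 to 10667 in DMSO. Of 6 a-cell genes 4 were lower and 1 higher in PFA, with summed signals of 454 to 543 in PFA and 1547 to 1583 in DMSO. All 9 genes lay above the background level of 20.01 on every array, the dimmest value 16.3 times above it. DIN7, RNR3, RAD54, DUN1, RFX1 and HUG1 were still among the dimmer genes tested, at percentiles 17.8 to 34.3 of the DMSO signal.

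Of the 9 genes, 4 rose in PFA (RNR2, RNR3, RAD54 and DIN7), RNR1 and DUN1 fell, and 3 were not called (RNR4, HUG1 and RFX1). The 6 genes called, 66.7% of the 9, stand against 62.0% of all genes, so the share changed is near the background and is not a result about these genes. Changes of at least 1.5-fold were found for DIN7, RNR3 and RNR1, 3 of the 9 or 33.3% against 23.7% of all genes. With only 9 genes, chosen with earlier results of these data known, this difference is not a result about them either. The median change was 0.26 on the log2 scale, against -0.02 over all genes, and the median size regardless of sign was 0.42 against 0.32. That median change is the value of HUG1, which was not called and ran from 0.143 to 0.438 with an array left out. In 6 of the 9 the values of the groups did not overlap, which also held for 66.6% of all genes.

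**Figure D1:**
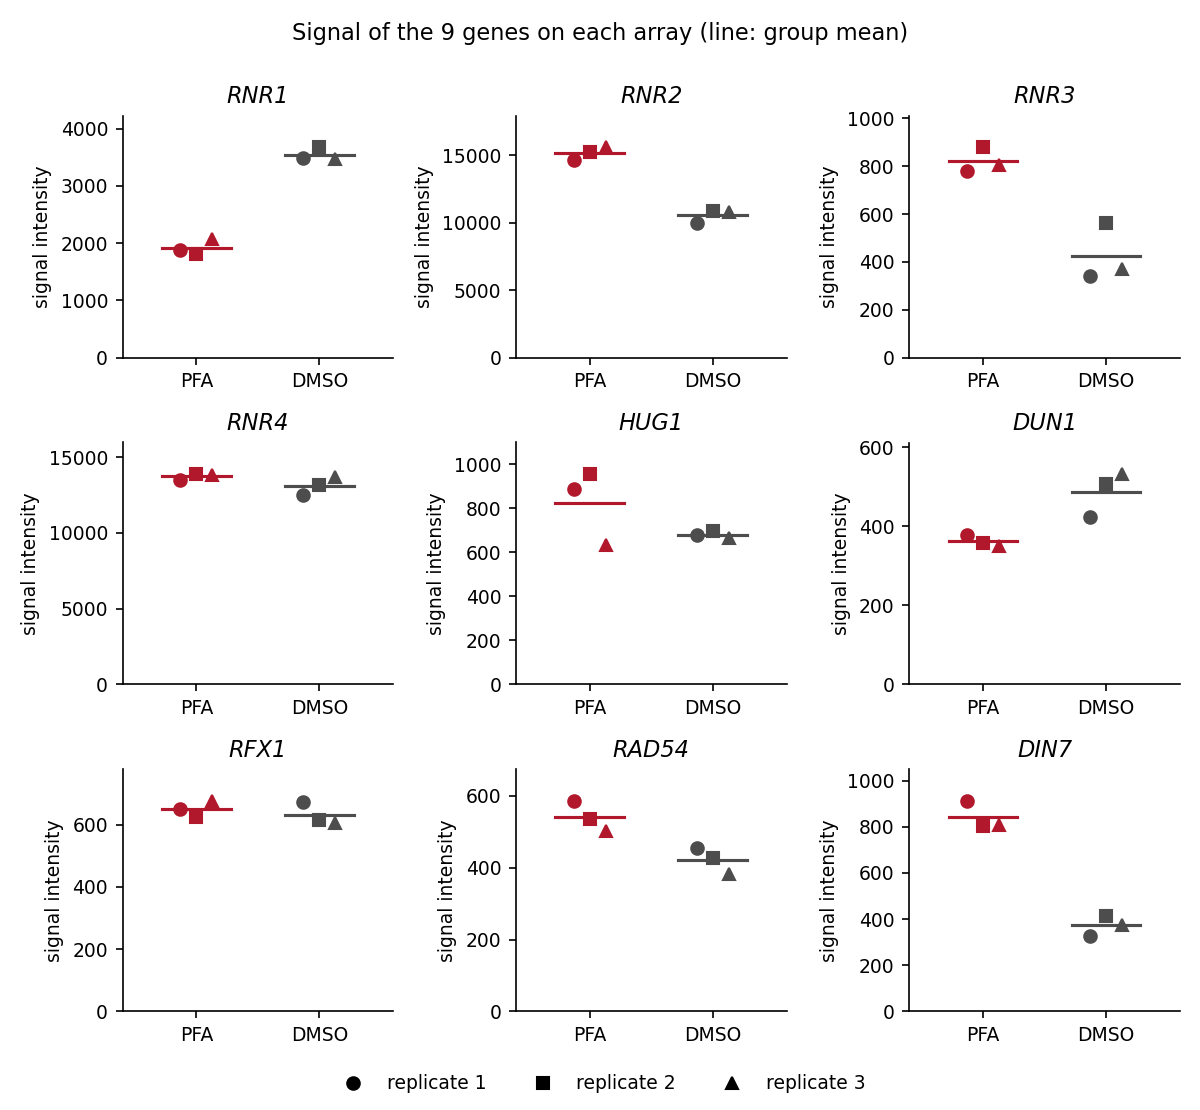
Signal intensity (linear scale from 0) of each of the 9 genes on every array, PFA in red at the left and DMSO in grey at the right of each panel, with a symbol for each replicate number and a line at the group mean. RNR2, RNR3, RAD54 and DIN7 lie higher and RNR1 and DUN1 lower in PFA without overlap, whereas the groups overlap for RNR4, HUG1 and RFX1.

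The 4 subunit genes did not move together, with 2 higher in PFA, 1 lower and 1 below the threshold of the test. RNR1 (YER070W), the gene of the main large subunit, had signals of 1873, 1801 and 2070 in PFA, against 3489, 3673 and 3463 in DMSO. The lowest DMSO array was well above the highest PFA array. The means were 1915 ± 139 in PFA and 3542 ± 115 in DMSO (SD, n = 3 each), and RNR1 fell by 0.89 on the log2 scale (SE 0.08, 1.85-fold lower, limma adjusted p = 7.34e-07). Of all genes tested, 4.46% fell by more.

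RNR3 (YIL066C), the damage-induced large subunit gene, went the other way, with 778, 879 and 806 in PFA and 340, 563 and 368 in DMSO. All PFA arrays were higher than all DMSO arrays, although DMSO replicate 2 stood above the other DMSO arrays. The coefficient of variation was 6.34% in PFA and 28.6% in DMSO, the widest of the 9 genes in that group. The mean signal was 821 ± 52.1 in PFA and 424 ± 121 in DMSO (SD, n = 3 each), a log2 change of 0.99 ± 0.15 (SE) or 1.98-fold higher (limma adjusted p = 0.000129). Leaving out DMSO replicate 2 gave 1.21, and leaving out DMSO replicate 1 gave the smallest value, 0.85. A larger rise was found for 5.97% of all genes.

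RNR2 (YJL026W), the cofactor-bearing small subunit gene, had signals of 14680, 15238 and 15596 in PFA and 9985, 10890 and 10816 in DMSO. The groups were clearly apart and each was tight, with coefficients of variation of 3.04% in PFA and 4.76% in DMSO. Mean signals were 15172 ± 462 in PFA and 10564 ± 503 in DMSO (SD, n = 3 each), and RNR2 rose 1.44-fold (log2 change 0.52 ± 0.05, SE, limma adjusted p = 2.14e-06).

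RNR4 (YGR180C), whose product pairs with Rnr2, had 13492, 13876 and 13847 in PFA, against 12521, 13148 and 13658 in DMSO. DMSO replicate 3 lay above PFA replicate 1, so the groups overlapped. The log2 change was 0.07 ± 0.05 (SE, limma adjusted p = 0.223), and its 95% interval, -0.03 to 0.17, corresponds to a PFA signal of 0.977 to 1.13 times that in DMSO. The call depended on scaling. After quantile normalization the log2 change was 0.22 (limma adjusted p = 0.000913), and after centring each array on its median it was 0.01. RNR2 and RNR4 were already among the brightest probe sets in DMSO, at the 94.5th and 96.6th percentile of the genes tested. Saturation of these probe sets was not tested.

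Genes of the same subunit were also compared with each other through the ratio of their signals on the same array, which the scaling of whole arrays does not touch. The log2 ratio of RNR3 to RNR1, set relative to its DMSO mean, was 1.83, 2.06 and 1.74 in PFA and -0.26, 0.39 and -0.13 in DMSO. It was higher in all PFA arrays, by 1.88 ± 0.22 (SE) on the log2 scale, which is 3.68-fold. The log2 ratio of RNR4 to RNR2, set relative to its DMSO mean, was -0.43, -0.45 and -0.48 in PFA and 0.01, -0.04 and 0.03 in DMSO. It was lower in all PFA arrays, with a difference of -0.45 ± 0.02 (SE), so the signals of the small subunit genes changed unequally. The part of probe set saturation in this shift was not tested. An exact two-sided permutation test gave p = 0.1 for each ratio, the smallest p that 3 against 3 arrays allow. Ratios between probe sets do not show which transcript was more abundant, so only the shift between groups is given.

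**Figure D2:**
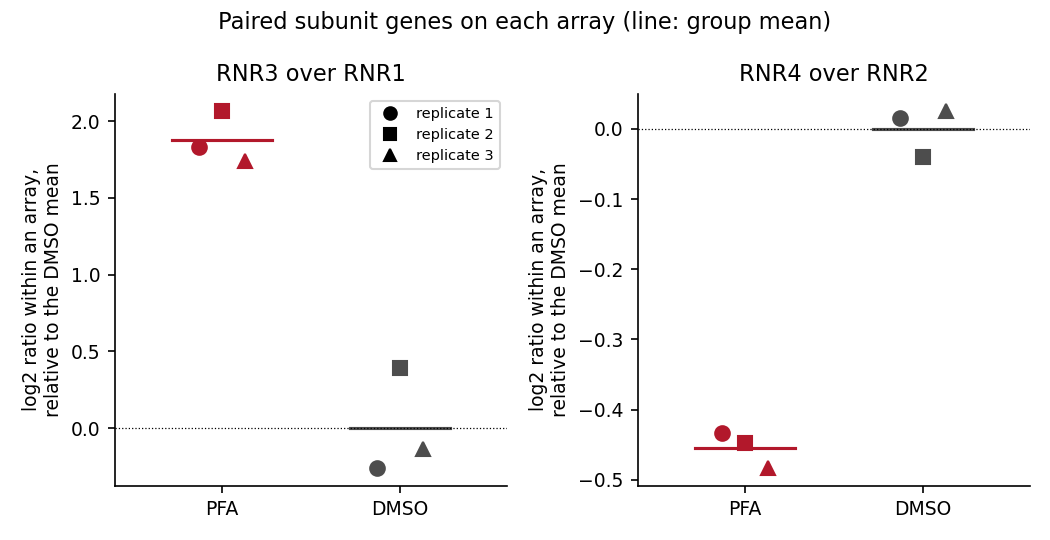
Log2 ratio of RNR3 to RNR1 (left panel) and of RNR4 to RNR2 (right panel) within each array, relative to the DMSO mean, with PFA in red left of DMSO in grey, a symbol for each replicate number and a line at the group mean. The first ratio lies 1.88 higher and the second 0.45 lower in PFA, on scales that differ between the panels.

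Among the regulators DUN1 was lower in PFA, and HUG1 and RFX1 did not pass the test. DUN1 (YDL101C), the kinase that acts between the checkpoint and Rfx1, had 377, 359 and 350 in PFA and 423, 507 and 532 in DMSO. Each PFA value was below each DMSO value, with DMSO replicate 1 the nearest to the PFA arrays. The means were 362 ± 13.9 in PFA and 487 ± 57.2 in DMSO (SD, n = 3 each), and DUN1 fell by 0.42 on the log2 scale (SE 0.10, 1.34-fold lower, limma adjusted p = 0.00355).

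HUG1 (YML058W-A) encodes a small protein that binds and restrains the reductase and whose gene responds strongly to hydroxyurea, ultraviolet light and gamma rays. Its signals were 888, 956 and 634 in PFA and 678, 698 and 665 in DMSO. PFA replicates 1 and 2 were above every DMSO array and PFA replicate 3 below every DMSO array. The coefficient of variation was 20.5% in PFA and 2.43% in DMSO. The log2 change of HUG1 was 0.26 ± 0.13 (SE, limma adjusted p = 0.0993), with a 95% interval of -0.02 to 0.54, or 0.985 to 1.45 times the DMSO signal. A single array decided the call, since without PFA replicate 3 the log2 change was 0.44 (limma adjusted p = 0.00105). The neighbouring gene SML1, which encodes another small inhibitor of the reductase, had a log2 change of 0.10 ± 0.06 (SE, limma adjusted p = 0.169). Like HUG1 it passed without PFA replicate 3 (log2 change 0.16, limma adjusted p = 0.0153), and it also passed after quantile normalization (0.21, limma adjusted p = 0.00878).

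RFX1 (YLR176C), the repressor gene, had 649, 625 and 677 in PFA and 674, 615 and 606 in DMSO. The values interleaved. The log2 change was 0.04 ± 0.08 (SE, limma adjusted p = 0.676), and the 95% interval of -0.14 to 0.23 allows 0.908 to 1.17 times the DMSO signal. The sign of this small difference turned under quantile normalization (-0.01) and centring (-0.02). Counting RFX1 itself, 2 of the 5 genes known to be repressed by Rfx1 rose, where 30.3% of all genes did, and 3 (RNR4, HUG1 and RFX1) were not called by limma. That count is near the background and is not a result about Rfx1 targets.

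Both repair genes rose. DIN7 (YDR263C), which encodes a mitochondrial nuclease of the FEN1/XPG family, had 913, 802 and 807 in PFA and 326, 415 and 376 in DMSO. The lowest PFA array stood far above the highest DMSO array, and the change was the largest of the 9 genes. Means were 841 ± 62.5 in PFA and 372 ± 44.4 in DMSO (SD, n = 3 each), 2.27-fold higher in PFA (log2 change 1.18 ± 0.10, SE, limma adjusted p = 9.47e-07). A total of 4.11% of all genes rose by more. RAD54 (YGL163C), which encodes a DNA translocase of homologous recombination, had 586, 537 and 502 in PFA and 455, 426 and 381 in DMSO. These groups did not overlap but lay close together. RAD54 rose 1.29-fold (log2 change 0.37 ± 0.10, SE, limma adjusted p = 0.00657), and 22.6% of all genes had a larger rise.

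**Figure D3:**
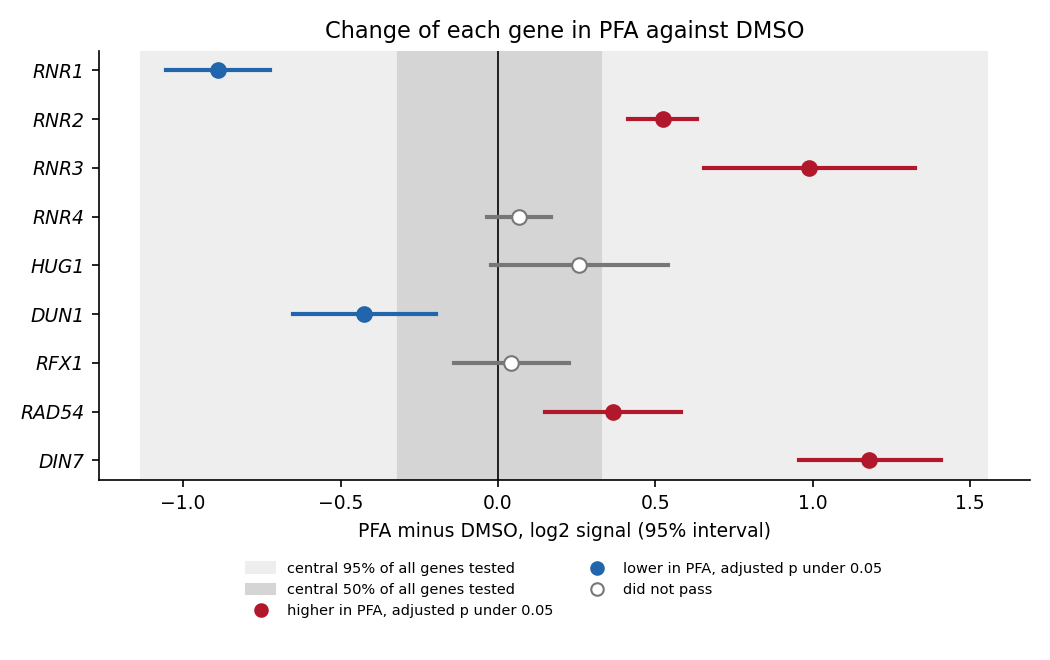
Log2 change of each of the 9 genes, PFA minus DMSO, with its 95% interval from limma. Red marks genes higher in PFA and blue genes lower in PFA at an adjusted p under 0.05, open grey circles mark genes that did not pass, and the grey bands show the central 50% (-0.32 to 0.33) and 95% (-1.13 to 1.56) of all genes tested. All 9 changes lie inside the wider band.

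The genes whose signals ran most alike over the 6 arrays were found by the distance between log2 signals centred on each gene's mean. Such likeness mostly restates the size of the change between the groups. RNR1 was nearest to STE12, UTP23 and RTT109 (distances 0.06 to 0.09), RNR2 to PAH1, MET30 and YMD8 (0.07 to 0.08) and DUN1 to ERG24, CKA1 and UTP6 (0.08 to 0.10). RNR3 was nearest to RAD2 (distance 0.28), then to AUA1 and AIM3. RAD2, an excision repair nuclease gene, had 689, 658 and 580 in PFA and 289, 422 and 317 in DMSO, so that DMSO replicate 2 was the highest DMSO array for both RAD2 and RNR3. DIN7 was nearest to ARG80, ATG5 and ECM4 (0.09 to 0.21), and RAD54 to YCF1, IST1 and MXR1 (0.09 to 0.11). For the genes that did not pass, the nearest were TCD1, ERG6 and BAT1 for RNR4, CPR2, YPI1 and DAD4 for HUG1 and CHS3, GPB2 and RGP1 for RFX1.

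The surrounding pathway was described with 13 lists of genes, 124 of them measured. Of those, 36 rose, 38 fell and 50 did not pass, so 59.7% were called, against 62.0% of all genes. Shares called in lists not given one further on were 57.1% for reductase regulation and assembly, 83.3% for deoxyribonucleotide synthesis, 66.7% for MBF and SBF factors, 54.5% for nucleotide excision repair, 42.9% for mismatch repair and 44.4% for postreplication repair. Of 14 genes of reductase regulation and assembly, 2 rose and 6 fell, with a median log2 change of -0.09. GRX4, encoding a glutaredoxin of iron delivery, was 2.07-fold lower, with 480, 572 and 534 in PFA and 1161, 1042 and 1066 in DMSO (limma adjusted p = 7.94e-07). TUP1 and CYC8, which encode the corepressor that Rfx1 recruits, fell by 0.61 and 0.43 on the log2 scale (limma adjusted p = 4.29e-05 and 0.000376). TRX1, encoding a thioredoxin that can reduce the enzyme, was 1.5-fold lower. TRX2, in the same list, was not called (log2 change -0.006 ± 0.055, SE, limma adjusted p = 0.933). DIF1 and WTM1, whose products bring the small subunit into the nucleus and hold it there, rose by 0.30 and 0.23 on the log2 scale (limma adjusted p = 0.0107 and 0.00111), and DIF1 did not pass without PFA replicate 2 (limma adjusted p = 0.0523). CRT10, which encodes a negative regulator of RNR transcription, had a log2 change of 0.02 ± 0.09 (SE, limma adjusted p = 0.877).

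Among 6 other genes of deoxyribonucleotide synthesis 4 fell and 1 rose (median log2 change -0.62). The dihydrofolate reductase gene DFR1 had 785, 720 and 700 in PFA and 2248, 1970 and 1768 in DMSO, 2.71-fold lower. The dUTP pyrophosphatase gene DUT1 and the thymidylate synthase gene CDC21 were each 1.7-fold lower, whereas the nucleoside diphosphate kinase gene YNK1 was 1.44-fold higher. Of 15 genes expressed at G1/S like RNR1, 13 fell and 1 rose, so 93.3% were called, against 62.0% of all genes, of which 31.8% fell. The median log2 change was -0.53, against -0.02 over all genes. This list, like the others, was chosen with earlier results of these data known. The lists share genes, so their counts are not independent. CDC21 is also counted in the deoxyribonucleotide list and RAD27 among the nuclease relatives of DIN7. RAD2, PHR1, MAG1, EXO1 and YEN1 likewise recur across the other lists. The gene that rose, CDC9 (log2 change 0.28), did not pass without DMSO replicate 2 or after quantile normalization. CLB6 (6.74-fold lower), TOS4 (2.27-fold), POL30 (2.25-fold) and the cohesin gene MCD1 (2.32-fold) led the falls. The part of this shift in the fall of RNR1 was not tested. Among 6 genes of the transcription factors that drive G1/S expression, MBF and SBF, 3 fell and 1 rose. NRM1, an MBF corepressor gene that is itself transcribed at G1/S, was 2.96-fold lower, the SBF inhibitor gene WHI5 1.71-fold lower and STB1 1.25-fold lower. STB1 did not pass without PFA replicate 1 or DMSO replicate 2 or 3 (limma adjusted p = 0.117, 0.133 and 0.0532). MBP1, the DNA-binding subunit gene of MBF, was 1.23-fold higher (limma adjusted p = 0.0092).

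Of 18 checkpoint genes 7 rose, 5 fell and 6 did not pass, and the share called, 66.7%, is near the 62.0% of all genes. After quantile normalization 5 rose and 6 fell, and after centring 5 rose and 5 fell. MEC1, the sensor kinase gene, had 768, 757 and 796 in PFA and 476, 458 and 457 in DMSO, 1.67-fold higher (limma adjusted p = 5.78e-06). RAD9, the adaptor gene, was 1.38-fold higher, whereas RAD53, the effector kinase gene, fell by 0.39 on the log2 scale (SE 0.14, limma adjusted p = 0.0241). RAD53 did not pass without PFA replicate 1 or 2 or DMSO replicate 2 or 3 (limma adjusted p = 0.0847, 0.0591, 0.0766 and 0.0911). Of the phosphatase genes in the list, whose products switch the checkpoint off, PTC2 (1.99-fold), PTC3 (1.61-fold) and PPH3 (1.52-fold) were lower, whereas PSY2, the gene of a regulatory subunit of the Pph3 phosphatase, was 1.22-fold higher (limma adjusted p = 0.00549). TOF1, of the fork protection complex, was 1.61-fold lower. Transcript levels do not measure the activity of these kinases, which is set by phosphorylation.

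Of 9 other genes known to be induced by DNA damage, 5 rose and 1 fell, with a median log2 change of 0.48 against -0.02 over all genes. The share called was 66.7%, near the 62.0% of all genes. The largest rises were in DDR2 (10.9-fold), the polyubiquitin gene UBI4 (3.18-fold) and DDR48 (2.81-fold), which also belong to the general stress response, followed by RAD2 (1.89-fold). The photolyase gene PHR1 had 159, 147 and 163 in PFA and 202, 274 and 308 in DMSO, 1.65-fold lower (limma adjusted p = 0.00149). PLM2, a forkhead-associated domain gene, had a log2 change of -0.23 ± 0.17 (SE, limma adjusted p = 0.276). The part of general stress in the rises of RNR3 and DIN7 was not tested.

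Of 19 homologous recombination genes 9 rose, 3 fell and 7 did not pass, a share called of 63.2% against 62.0% of all genes. The number that fell was 1 without PFA replicate 1 or DMSO replicate 3, and 4 without PFA replicate 3. The number that rose was 7 or 8 with any array left out. After quantile normalization or centring, 7 rose and 3 fell. RMI1, of the Sgs1-Top3 complex, was 2.14-fold higher, the nuclease gene MUS81 1.5-fold and SLX4 1.48-fold higher, and RAD59 2.15-fold lower. In nucleotide excision repair with photolyase 5 of 11 rose and 1, PHR1, fell. RAD26 was 1.99-fold higher and RAD16 1.78-fold higher. In base excision and direct repair 3 of 9 rose and the other 6 were not called (MAG1 1.4-fold, APN2 1.39-fold and UNG1 1.22-fold higher), where limma found 62.0% of all genes changed. At an unadjusted p under 0.05, 1 of those 6 was lower, and at the adjusted threshold 1 was lower after quantile normalization and 2 after centring. Without PFA replicate 2 or DMSO replicate 1 there was also 1 lower. The share called was 33.3% there and 16.7% in non-homologous end joining, where 1 of 6 genes rose and 5 were not called. In end joining 2 rose without PFA replicate 2 or without the variance trend, and 1 fell after quantile normalization, after centring or without DMSO replicate 1. In mismatch repair 1 of 7 rose and 2 fell, with MLH2 1.79-fold higher, MSH1 1.46-fold and MSH6 1.16-fold lower. In postreplication repair and translesion synthesis 2 of 9 rose and 2 fell, among them RAD30, the DNA polymerase eta gene, at 1.53-fold higher, MMS2 at 1.24-fold higher and UBC13 and RAD5 at 1.44-fold and 1.43-fold lower. MSH6 did not pass without PFA replicate 1 or 2 or DMSO replicate 2 (limma adjusted p = 0.0567, 0.0659 and 0.0686), nor MMS2 without DMSO replicate 3 (0.0589). Of the 4 nuclease relatives of DIN7, RAD2 rose, RAD27 was 2.18-fold lower, and EXO1 and YEN1 did not pass (log2 changes 0.01 and -0.02). That is a share called of 50%, against 62.0% of all genes.

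**Figure D4:**
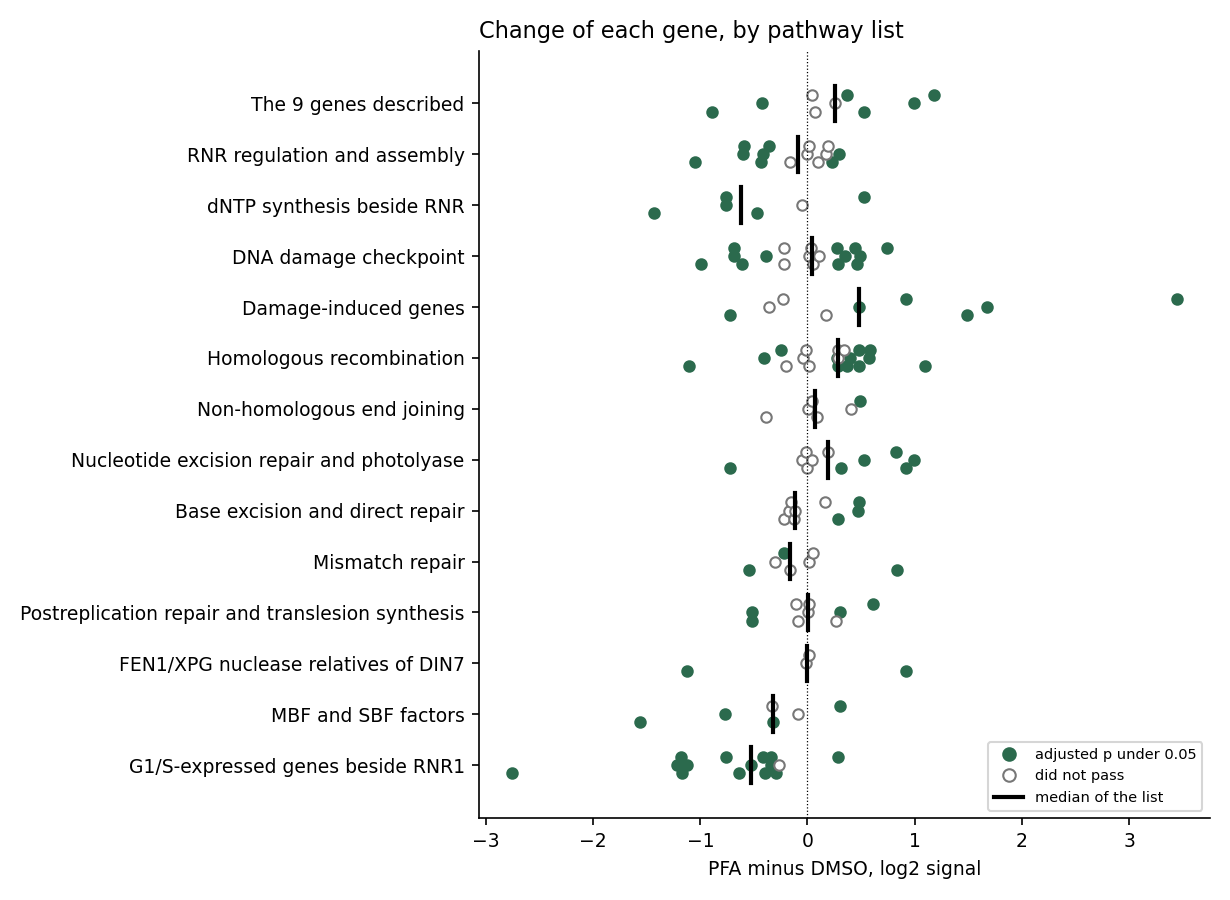
Log2 change, PFA minus DMSO, of each gene in the 9 genes described and in the 13 pathway lists, filled where the limma adjusted p was under 0.05 and open where not, with a bar at the median of the list. Medians run from -0.62 for deoxyribonucleotide synthesis to 0.48 for other damage-induced genes, and most lists hold genes on both sides of 0.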

How the data were processed

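The authors deposited 1 table of signal intensity per probe set for 6 arrays, made with GCOS 1.1 per the submitters' processing notes. The summary algorithm is not given in the sources used here. With 2% of probe sets trimmed at each end, the mean intensity was 1000.5 to 1000.6 on each array, so the deposited intensities had been scaled to a common level, and a shift of all transcripts would not be seen. Of 10928 probe sets, 5498 matched 1 S. cerevisiae gene (5449 genes) through the platform annotation and the RefSeq R64 gene table, and 1746 belonged to another organism. Genes above the 95th percentile of that organism's mean log2 signals (a signal of 20.01) were tested, 5356 in all, each by its brightest probe set. Gene order on the chromosomes was used to name the neighbour of HUG1, and no sequences were used.

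Log2 signals were compared by limma 3.58.1 under R 4.3.3, using lmFit, then eBayes with an intensity-dependent variance (two-sided tests, adjusted by Benjamini-Hochberg across all genes, threshold 0.05). Folds are ratios of geometric means, intervals are 95% moderated intervals without adjustment, and means ± SD are of linear signals. On simulated data for PFA against DMSO with 5356 genes, the fit recovered 85.1% of log2 changes of 0.585, 92.5% of 1 and 98.5% of 2. It called 7 of 5156 unchanged genes. The simulation left most genes unchanged, whereas 62.0% were called in the data, so these rates need not hold there. Figures were drawn with matplotlib 3.10.9. The 6 arrays limit the precision. The genes and lists were chosen with earlier results of these data known. Named beside the 9 were SML1, DIF1, WTM1, CRT10, MEC1, RAD53, RAD9 and MBP1, up to 4 changed genes with the largest change per list with at least 2 such genes, and the 3 nearest profiles per gene. PPH3, PSY2, CDC9, PLM2, EXO1, YEN1 and TRX2 were outside that rule or chosen after their values were seen. Some list genes are not reported here (4 of 128). Alternatives were quantile normalization, centring, other filters, a replicate block, pseudocounts of 16 and 64, no variance trend, all probe sets and leaving out each array.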

Additional observations from a re-analysis of the deposited data

How the results depend on the processing

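RNR1, RNR2, RNR3, DUN1, RAD54 and DIN7 kept their direction and stayed past the threshold under every alternative that could test them. RNR4 passed after quantile normalization (log2 change 0.215, limma adjusted p = 0.000913; adjusted p 0.000913 to 0.914 over its alternatives), HUG1 without PFA replicate 3 (0.438; 0.00105 to 0.37), and RFX1 changed sign after quantile normalization (-0.014) and centring (-0.019); the causes were not tested. Requiring a signal above the median left RNR1, RNR2 and RNR4 of the 9 genes, since it tests fewer genes, with 1 higher and 1 lower. It called 813 genes higher and 1080 lower over all genes (1622 and 1701 as reported), and 8 higher and 14 lower in the lists (36 and 38 as reported).
Of 54 other named pathway genes, which leave out TRX2, 44 kept direction and call throughout. CRT10 and EXO1 changed sign after quantile normalization (-0.049 and -0.07) and centring (-0.044 and -0.051), and leaving out an array gave -0.03 to 0.102 for CRT10, -0.029 to 0.042 for EXO1 and -0.059 to 0.048 for YEN1.
Leaving out each array in turn gave log2 changes of -0.947 to -0.847 for RNR1, 0.483 to 0.546 for RNR2, 0.849 to 1.212 for RNR3, 0.036 to 0.098 for RNR4, 0.143 to 0.438 for HUG1, -0.523 to -0.357 for DUN1, 0.013 to 0.091 for RFX1, 0.296 to 0.424 for RAD54 and 1.088 to 1.261 for DIN7. Where this leaves 2 arrays in a group, limma pools the spread of both groups. The titles do not say whether the replicate numbers pair the cultures. Deviations of arrays with the same number correlated at -0.05, -0.09 and 0.16, which shows no clear pairing but cannot exclude a weak one. The replicate block called 1642 genes higher and 1724 lower, and changed no call among the 9 (HUG1 adjusted p = 0.0544). Dim signals and 3 arrays a group limit what could be seen of small changes.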
